A study of Citrus sinensis with 24 samples.

Results

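Xinhui is a sweet orange (Citrus sinensis) variety whose fruits the labels class as acidic, one of the normal acidity varieties of the study. Its fruit transcriptome was compared between 142 days post anthesis (DPA, days after flower opening) and 45 DPA. The comparison used the 6 Xinhui libraries of the 24 in the series, 3 replicates at 142 DPA and 3 at 45 DPA, and all 24166 gene IDs of the deposited table. The other 18 libraries come from Newhall (normal acidity), Bingtang (low acid) and Succari (acidless) fruits at the same stages, 3 per variety and stage. All fruits came from field grown trees without a treatment, and RNA was taken from fruit tissue in bulk, so that fewer cells of a type and less RNA per cell cannot be told apart. Neither the tissue within the fruit nor the number of trees or fruits behind a library is given in the sources used here. Where replicates were not separate trees, p-values measure only the spread between these samples. Stage and collection time are the same thing in this design and cannot be told apart.

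An orange fruit grows first mainly by cell division and then by expansion of its juice vesicle cells, whose vacuoles fill with water, sugars and organic acids. Citrate, the main acid of citrus juice, is stored in these vacuoles. Oranges are non-climacteric, which means that they mature without a burst of respiration and ethylene. The study placed 45 DPA in the cell division stage and 142 DPA in the cell expansion stage, and asked which genes follow the ratio of sugars to acids.

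Counted reads per library, in units of 1000000, ranged from 5.03 to 5.89 in Xinhui and from 3.76 to 5.89 over the series. Reads fell on 19015 to 19200 genes in Xinhui libraries of 142 DPA and on 19965 to 20053 genes in those of 45 DPA. The 10 most abundant genes took 5.57% to 11% of the counts at 142 DPA and 6.78% to 7.29% at 45 DPA. Levels are given below as counts per 1000000 counted reads of the library (CPM). The replicates of 142 DPA lay further apart, with a median SD of log2(CPM + 0.5) per gene of 0.247, against 0.151 at 45 DPA. Between libraries of different stages the median absolute difference was 0.692 on that scale, against 0.263 to 0.292 between replicates of 142 DPA and 0.157 to 0.18 between replicates of 45 DPA. No table used here pairs the gene IDs with names except the study's list of 72 genes whose levels followed the sugar/acid ratio, so the tissue label could not be checked against marker genes of fruit tissues.

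Between the stages a large part of the Xinhui transcriptome changed, and losses were both more frequent and larger than gains. Of 20739 genes tested with edgeR's quasi-likelihood test, 3175 rose (15.3%) and 4117 fell (19.9%) at 142 DPA relative to 45 DPA, a call needing a Benjamini-Hochberg adjusted p below 0.05 with a change of 2-fold or more. The fitted log2 fold change is written log2FC below and is followed by ± its SE. Together 7292 genes were called (35.2%), and another 5045 had an adjusted p under 0.05 with a change under 2-fold. The median gene that rose had a log2 fold change of 1.82, or 3.54-fold, and the median gene that fell one of -2.61, or 6.1-fold. The median over all genes tested was -0.0196.

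The imbalance widened with the size of the change. At 4-fold or more, 1400 of the genes that rose (44.1%) and 2575 of those that fell (62.5%) remained. At 16-fold the counts were 435 (13.7%) and 1218 (29.6%), and at 32-fold they were 214 (6.74%) and 735 (17.9%). The 3 libraries of 142 DPA all lay above the 3 of 45 DPA for 5880 genes (28.4%) and all below them for 7236 (34.9%).

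Switching off was also seen more often than switching on. Reads at 45 DPA and none in any 142 DPA library were found for 1772 IDs, of which 506 fell by the test. The reverse, reads at 142 DPA and none at 45 DPA, was found for 853 IDs, of which 146 rose. Most of these IDs were not called, and absence of reads at this depth does not show absence of a transcript. A further 1841 IDs had no reads in Xinhui fruits, and 16880 had reads in all 6 libraries.

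**Figure D1:**
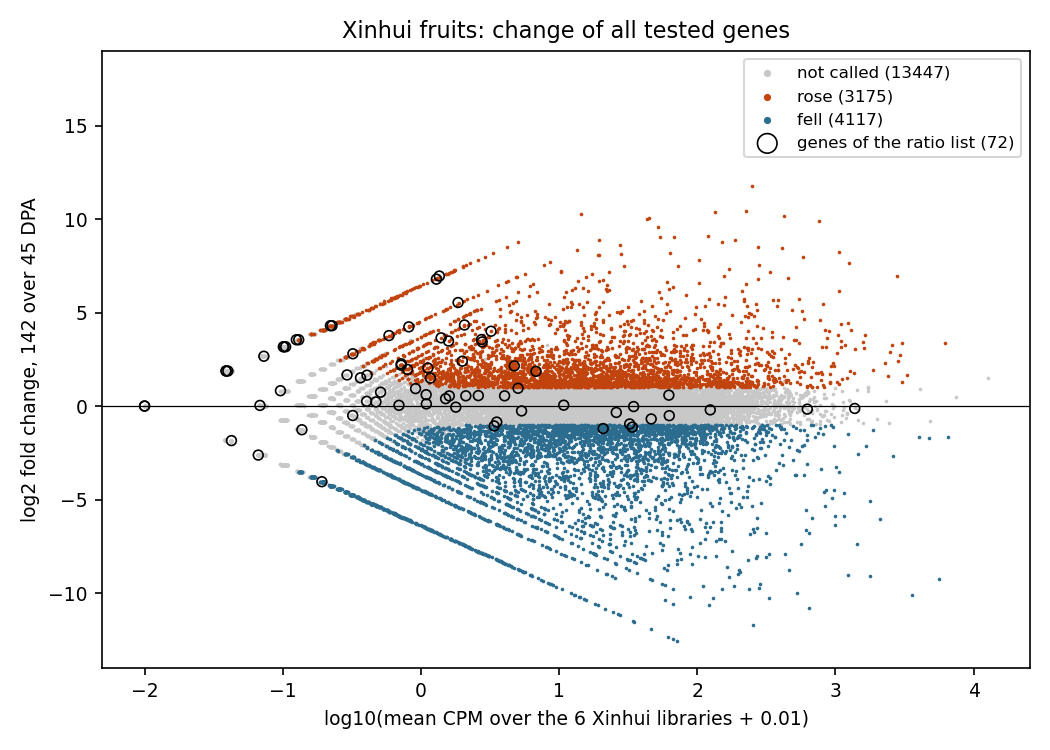
Each point is 1 of the 20739 genes tested, placed by log10 of its mean CPM over the 6 Xinhui libraries (plus 0.01) on the x axis and by the fitted log2 fold change of 142 over 45 DPA on the y axis, with called genes in colour and the 72 genes of the sugar/acid ratio list ringed. At the median the 4117 genes that fell lie further from 0 (-2.61) than the 3175 that rose (1.82), and the outermost diagonal lines at the left are genes with reads at 1 stage only.

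The reads were also summed over each class of genes. The genes that rose held 35.5% ± 1.39 of the reads at 142 DPA and 8.2% ± 0.0814 at 45 DPA (SD, n = 3 each). Those that fell held 6.22% ± 0.145 at 142 DPA and 33.2% ± 0.301 at 45 DPA. Genes that were not called held 58.2% ± 1.35 at 142 DPA and 58.6% ± 0.372 at 45 DPA. These shares describe genes that were chosen by the same comparison and carry no test. Since the shares of a library add up to its whole, and the uncalled genes kept nearly the same share, the gain of the rising genes and the loss of the falling ones are bound to be similar.

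**Figure D2:**
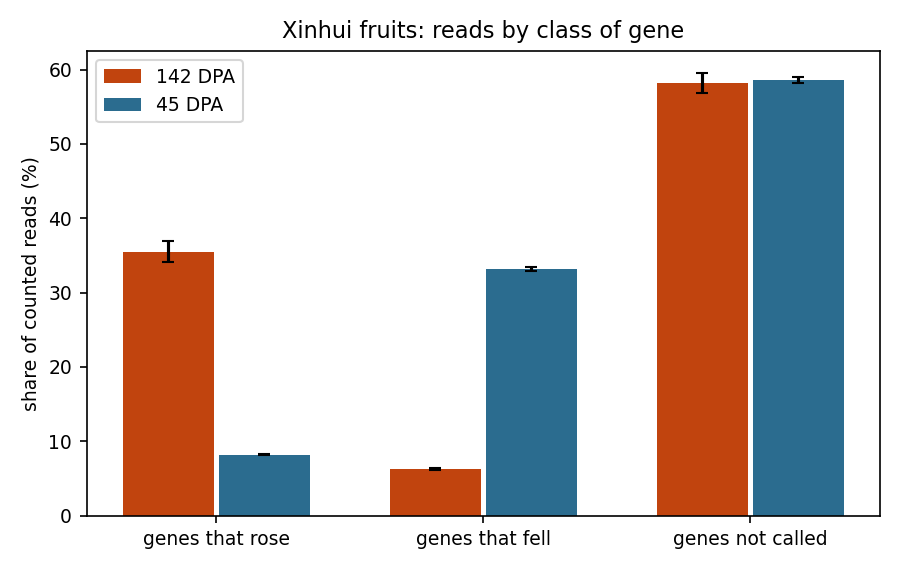
Bars give the mean share of counted reads (%, y axis) held by genes that rose, genes that fell and genes not called in Xinhui fruits, with 142 DPA left of 45 DPA and error bars of 1 SD over 3 libraries. Genes that rose held 35.5% at 142 DPA and 8.2% at 45 DPA, and genes that fell 6.22% and 33.2%.

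The excess of falling genes was found among the less abundant genes and not among the abundant ones. Of 5763 genes with a mean of 1 to 10 CPM over the 6 libraries, 19.9% rose and 26.7% fell. For the 2078 genes between 100 and 1000 CPM the shares were 19.2% and 17.4%, and for the 79 genes above 1000 CPM they were 41.8% and 24.1%. Among the 100 most abundant genes of 142 DPA, 67 rose and 4 fell, and among the 100 most abundant genes of 45 DPA, 5 rose and 53 fell. Over all genes 15.3% rose and 19.9% fell. Each list was ranked by the level at 1 of the 2 stages compared, so a lean towards that stage is built in and is only a description. The lists of the 2 stages had 34 genes in common.

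The genes with the smallest p-values carry IDs without a name in the sources used here, and 4 of them are given as examples of the range covered. Cs5g10820 had 1986.8, 2185.4 and 2102.7 CPM at 142 DPA, against 30.5, 29.7 and 32.4 CPM at 45 DPA. That is a 67.8-fold higher mean and a fitted log2FC of 6.13 ± 0.157 (adjusted p = 1.8e-18, edgeR). Cs8g08270 had 666.6, 548.8 and 466.4 CPM at 142 DPA, against 2.68, 3.06 and 3.32 CPM at 45 DPA, with a log2FC of 7.56 ± 0.205 (adjusted p = 5e-18). In both genes the stages were separated by far more than the spread of the replicates.

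In the other direction, Cs8g03860 had 0.596, 0.542 and 1.04 CPM at 142 DPA, against 206.6, 209.1 and 194.8 CPM at 45 DPA, with a log2FC of -8.02 ± 0.157 (adjusted p = 5.46e-20). Cs5g16770 had 0.398, 0.903 and 0.694 CPM at 142 DPA, against 1402.2, 1124.8 and 1364.0 CPM at 45 DPA, with a log2FC of -10.81 ± 0.238 (adjusted p = 3.29e-19). Each kept a few reads in every 142 DPA library. The mean of Cs5g16770 was 1951.0-fold lower at 142 DPA.

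Most of the change was shared with the other varieties. Of the genes that rose in Xinhui, 71.4% also rose in Newhall, 71.0% in Bingtang and 74.1% in Succari, which is 65.5%, 62.5% and 62.5% of the genes that rose in those varieties. Of the genes that fell in Xinhui, 75.1% also fell in Newhall, 76.6% in Bingtang and 70.9% in Succari, or 78.4%, 74.3% and 81.1% of the fallen genes there. The varieties share no libraries, and over all genes 16.7% rose and 19% fell in Newhall, 17.4% and 20.4% in Bingtang (37.8% in all), and 18.2% and 17.4% in Succari. Calls in opposite directions were few, with 19 genes for Newhall, 52 for Bingtang and 74 for Succari. In all 4 varieties 1741 genes rose (54.8% of those of Xinhui) and 2347 fell (57.0%).

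A call in Xinhui and in no other variety was found for 381 genes that rose (12%) and 431 that fell (10.5%). A missing call elsewhere does not show a difference, so the difference of the stage changes itself was tested. Of the 381 genes, 51 had a higher stage change in Xinhui than the mean of the other varieties, and of the 431 genes, 82 had a lower one. For most genes called in Xinhui alone the difference therefore did not pass the test.

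Over all genes, the stage change of Xinhui was higher than the mean stage change of Newhall, Bingtang and Succari for 471 genes (2.27%) and lower for 509 (2.45%), by edgeR's test of the interaction with the same thresholds (4.73% in all). This split depended on the scaling. With library totals only, 341 genes were higher and 698 lower, a share of 32.8% higher in place of 48.1%, and the median of all genes shifted by -0.125 on the log2 scale. Without the Succari libraries of 142 DPA, the counts against Newhall and Bingtang were 764 higher (3.74%) and 739 lower (3.62%). Against Newhall, the other variety of normal acidity, 653 genes were higher (3.15%) and 510 lower (2.46%), together 5.61%, and with library totals only 394 were higher and 969 lower, with a shift of -0.221.

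The levels behind these differences were then compared at each stage. Among the 471 genes with the higher stage change, the 3 Xinhui libraries lay above all 9 libraries of the other varieties at 142 DPA for 133 and below all 9 at 45 DPA for 141. Over all genes tested, 2.7% lay above at 142 DPA and 4.22% below at 45 DPA. Of the 509 genes with the lower stage change, Xinhui lay below the 9 others at 142 DPA for 162 and above them at 45 DPA for 149, where the shares over all genes were 3.86% and 5.68%. The genes were chosen by the difference that these counts break down, so the counts are a description. In Xinhui itself, 209 of the 471 genes rose and 92 fell, and 56 of the 509 rose and 270 fell.

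Outside the study list, the 2 higher and 2 lower genes of smallest p with at least 10 CPM at the higher stage are given as examples. Cs3g12000 had 92.4, 89.5 and 87.3 CPM at 142 DPA and 4.79, 5.09 and 7.23 CPM at 45 DPA in Xinhui. At 142 DPA the other varieties were near that level, with means of 101.8 ± 3.71 CPM in Newhall, 115.0 ± 2.25 in Bingtang and 80.0 ± 11.2 in Succari. At 45 DPA they were higher, with 30 ± 5.05, 68.0 ± 0.878 and 116.3 ± 3.73 CPM in the same order (SD, n = 3 each). The stage change of Xinhui, a log2 fold change of 4.02, exceeded the mean of the others by 3.45 ± 0.147 (adjusted p = 9.81e-13, edgeR).

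Cs8g15520 followed the same arrangement. Its levels in Xinhui were 23.7, 20.6 and 20.1 CPM at 142 DPA and 2.49, 1.02 and 1.95 CPM at 45 DPA. The means of the other varieties lay between 20.8 and 24.8 CPM at 142 DPA and between 16.8 and 62.1 CPM at 45 DPA, and the interaction was 4.34 ± 0.194 (adjusted p = 1.41e-12). All 4 varieties thus held similar levels at 142 DPA, while Xinhui stood apart at 45 DPA.

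Of the 2 genes with a lower stage change, Cs5g33420 had 3.38, 1.81 and 3.64 CPM at 142 DPA, against 83.5, 64.5 and 68.2 CPM at 45 DPA in Xinhui. The means of the other varieties were 7.99 to 19.1 CPM at 142 DPA and 12 to 16.3 CPM at 45 DPA, and the interaction was -4.16 ± 0.389 (adjusted p = 4.62e-07). Xinhui therefore lay above the others at the early stage and below them at the late stage. For orange1.1t01245 the Xinhui levels were 209.9, 174.2 and 163.1 CPM at 142 DPA, against 305.6, 337.9 and 330.2 CPM at 45 DPA, while the means of the other varieties were higher at 142 DPA (118.8 to 139.8 CPM) than at 45 DPA (45.0 to 84.2 CPM). The interaction was -1.89 ± 0.118 (adjusted p = 8.79e-10), and the Xinhui change of -0.79 itself stayed under 2-fold.

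**Figure D3:**
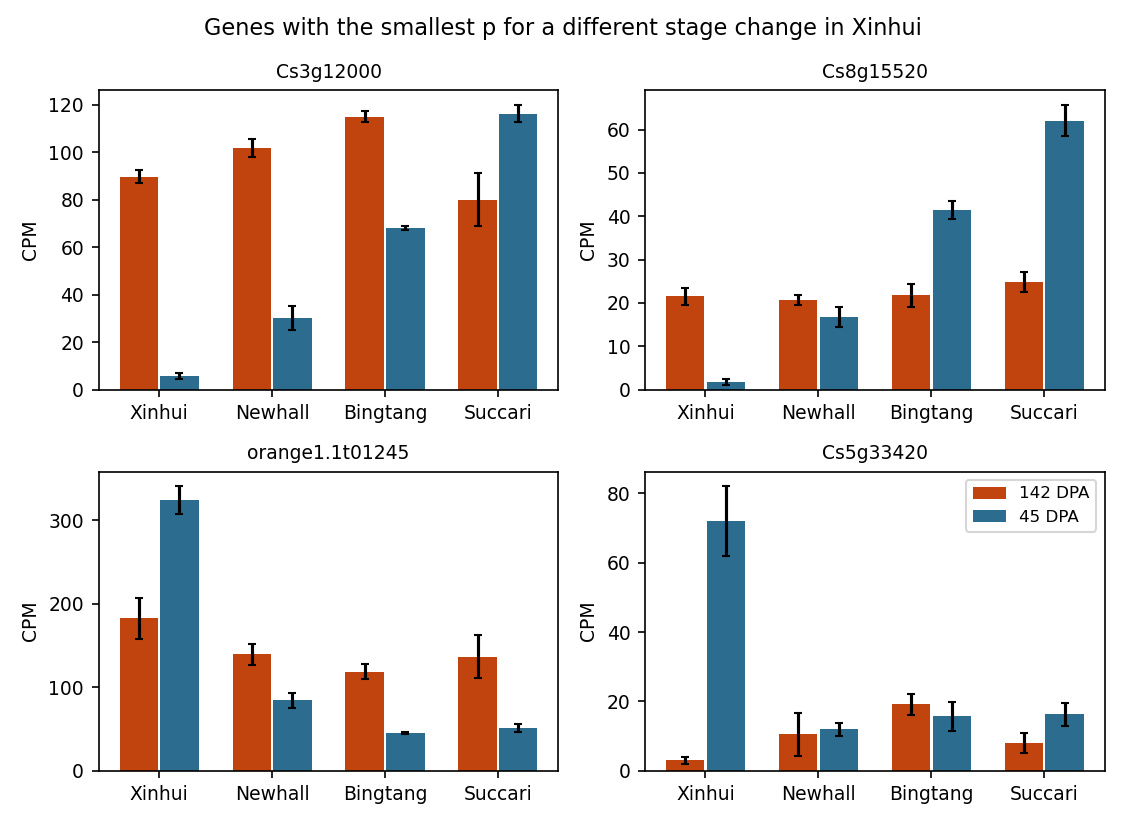
Bars give the mean CPM (y axis) of 4 genes in Xinhui, Newhall, Bingtang and Succari fruits, with 142 DPA left of 45 DPA and error bars of 1 SD over 3 libraries. At 45 DPA, Cs3g12000 and Cs8g15520 are lower in Xinhui than in the other varieties (means of 5.7 and 1.82 CPM in Xinhui), and orange1.1t01245 and Cs5g33420 are higher (324.6 and 72.1 CPM).

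The 72 named genes were chosen by the study for a correlation with the sugar/acid ratio over these same 24 libraries, so their counts are no independent evidence. All 72 passed the filter over the series, but in Xinhui 2 had no reads and 18 had 1 to 9 reads over the 6 libraries, which leaves 52 with 10 or more, 34 of them not called. In Xinhui 16 rose (22.2%, against 15.3% of all genes), 3 fell (4.17%, against 19.9%) and 53 were not called. Their median log2 fold change was 0.875, against -0.0196 over all genes. In the other varieties more of the list was called, with 23 rising and 3 falling in Newhall, 27 and 6 in Bingtang, and 61 and 11 in Succari, where the median was 4.37. By coexpression module of the study, 11 of 21 turquoise genes rose, as did 2 of 13 brown, 3 of 36 blue and 0 of 2 grey ones. The modules differed in coverage, and the genes with fewer than 10 reads were mostly blue, the others being brown. Of the 18 genes with 1 to 9 reads, 1 rose. The median log2FC was 1.58 for blue and 1.49 for turquoise genes, but the blue median includes the genes with fewer than 10 reads. Their fitted changes are poorly known, as for the blue gene Cs3g07510, where 3 reads against 0 gave a log2FC of 3.17. Because of this difference in coverage, neither the counts nor the medians can show whether blue and turquoise genes rose alike. The names below are those of the Arabidopsis homologs, whose roles are known from Arabidopsis unless stated. Reads were counted where they mapped uniquely, so genes with near-identical copies, such as the resistance and receptor kinase homologs of this list, can have lost reads.

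All 4 stress response genes of the list rose, where 15.3% of all genes did. HSP18.2, a small heat shock protein that keeps unfolding proteins soluble, had 6.36, 3.07 and 8.68 CPM at 142 DPA, against 0.575, 0.17 and 0.391 CPM at 45 DPA. Its mean was 15.9-fold higher, with a log2FC of 4.0 ± 1.27 (adjusted p = 0.0092, edgeR). The 142 DPA libraries lay above those of 45 DPA without overlap in all 4 genes, as they did for 28.4% of all genes. HSP18.2 was at a similar level in Newhall and Bingtang at 142 DPA (5.59 ± 2.08 and 4.81 ± 1.45 CPM), while Succari had 115.5 ± 115.2 CPM (SD, n = 3 each). The stage change of Xinhui did not pass the test of a difference from the mean of the others (interaction adjusted p = 0.684).

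The other stress genes are homologs of plant immune receptors. Cs5g18450, a leucine rich repeat protein, had 3.78, 2.17 and 2.78 CPM at 142 DPA, against 0.383, 0.339 and 0 CPM at 45 DPA (log2FC 3.48 ± 0.604, adjusted p = 3.2e-05). Cs5g19950, a homolog of the tobacco N protein that confers resistance to tobacco mosaic virus, had 41 reads at 142 DPA against 3 at 45 DPA, a ratio of 13.6 (95% exact interval 4.33 to 68.6, counting error only). The other N homolog, orange1.1t01829, had 6.16, 1.99 and 1.91 CPM at 142 DPA, against 0.766, 0.509 and 0.586 CPM at 45 DPA (log2FC 2.4 ± 0.514, adjusted p = 0.000338). Replicate 1 of 142 DPA was the highest library for both N homologs. For Cs5g19950 the adjusted p was 0.000521.

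**Figure D4:**
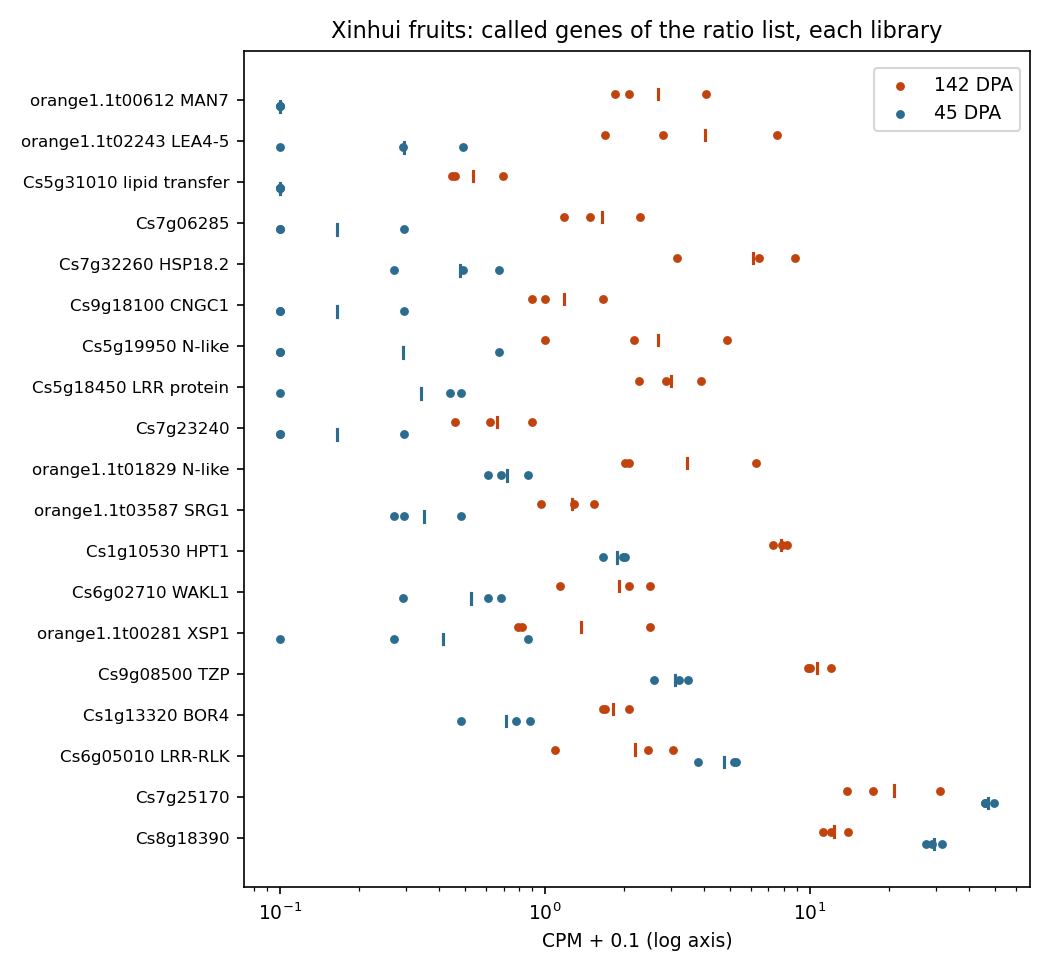
Points give each Xinhui library (x axis: CPM + 0.1, log axis) for the 19 called genes of the sugar/acid ratio list, 142 DPA above 45 DPA in each row, and ticks the means of 3 libraries. In 18 of the 19 rows the stages do not overlap, the exception being XSP1, and the 3 genes in the lowest rows fell. Of all genes tested, 63.2% did not overlap, and the rows shown were chosen by a test of the same difference.

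Among 20 metabolism genes, 3 rose (15%, against 15.3% of all genes) and 0 fell (against 19.9% of all genes). HPT1, homogentisate phytyltransferase, which carries out the committed step of tocopherol (vitamin E) synthesis, had 7.16, 7.76 and 8.15 CPM at 142 DPA, against 1.92, 1.87 and 1.56 CPM at 45 DPA. Its mean was 4.32-fold higher (log2FC 2.15 ± 0.315, adjusted p = 3.44e-06). MAN7, an endo-beta-mannanase that cuts mannans of the cell wall, had 41 reads at 142 DPA (3.98, 1.99 and 1.74 CPM) and 0 reads at 45 DPA, at least 13.6-fold higher by a floor of 3 counts over the 45 DPA group. Its adjusted p was 0.0407 and was above 0.05 on leaving out any of the 6 libraries (0.052 to 0.101). It depended on which libraries set the spread, and was 7.35e-05 in an edgeR fit of the 6 Xinhui libraries alone. SRG1, a dioxygenase named for its expression in senescence, had 1.19, 1.44 and 0.868 CPM at 142 DPA, against 0.383, 0.17 and 0.195 CPM at 45 DPA (log2FC 2.18 ± 0.79, adjusted p = 0.0212). Its call was lost without replicate 2 of 142 DPA or replicate 2 or 3 of 45 DPA (adjusted p 0.0657, 0.0693 and 0.0568).

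Other enzymes stayed under the 2-fold limit. PGI, cytosolic glucose-6-phosphate isomerase of glycolysis and sucrose metabolism, had 79.9, 69.0 and 72.5 CPM at 142 DPA, against 54.0, 51.3 and 47.3 CPM at 45 DPA, without overlap (log2FC 0.58 ± 0.155, adjusted p = 0.00249). KCS6, which elongates very long chain fatty acids for cuticular wax, had 39.2, 48.6 and 63.2 CPM at 142 DPA, against 75.9, 76.5 and 73.3 CPM at 45 DPA, also without overlap (log2FC -0.51 ± 0.184, adjusted p = 0.0196). Each of these differences passed the threshold on p but not the 2-fold limit.

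Cytosolic malate dehydrogenase (Cs1g03610), which interconverts malate and oxaloacetate, had 1.39, 1.62 and 0.347 CPM at 142 DPA, against 1.53, 0.849 and 0.782 CPM at 45 DPA. The stages overlapped, and the log2FC was 0.12 ± 0.544 (adjusted p = 0.873). Its sign turned on leaving out single libraries. Cs5g20010, a homolog of hyoscyamine 6-dioxygenase, had 2.78, 1.44 and 0.868 CPM at 142 DPA and 1.34, 1.19 and 1.37 CPM at 45 DPA, with overlap (log2FC 0.39 ± 0.496, adjusted p = 0.511).

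The abundant members were nearly level. EMB2296, a ribosomal protein, had 1191.9, 1457.8 and 1233.6 CPM at 142 DPA and 1512.0, 1467.3 and 1425.4 CPM at 45 DPA (log2FC -0.13, adjusted p = 0.37). APS1, an ATP sulfurylase that activates sulfate for its assimilation, had 561.3, 537.3 and 637.5 CPM at 142 DPA and 653.0, 666.7 and 702.6 CPM at 45 DPA (log2FC -0.17, adjusted p = 0.264). Of these, APS1 did not overlap between the stages and EMB2296 did.

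Of 9 transport genes 3 rose (33.3%, against 15.3% of all genes) and 0 fell. BOR4, a borate exporter that lowers boron in cells, had 1.59, 1.99 and 1.56 CPM at 142 DPA, against 0.383, 0.679 and 0.782 CPM at 45 DPA (log2FC 1.49 ± 0.514, adjusted p = 0.0159). Its call was lost without replicate 2 of 142 DPA (adjusted p = 0.0519) or replicate 1 of 45 DPA (0.0648). CNGC1, a cyclic nucleotide gated cation channel, had 18 reads at 142 DPA against 1 at 45 DPA, a ratio of 17.9 (95% exact interval 2.82 to 745.2, adjusted p = 0.00477). Cs5g31010, a lipid transfer or seed storage protein, had 7 reads at 142 DPA and 0 at 45 DPA, at least 2.32-fold higher (adjusted p = 0.0106). These 3 genes were thus scarce at both stages, and their folds are known only within wide limits.

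The potassium channel subunit KAT3 had 1.59, 1.08 and 2.43 CPM at 142 DPA and 1.92, 1.7 and 1.95 CPM at 45 DPA (log2FC -0.06, adjusted p = 0.921). ABCB21, an auxin transporter, had 2.58, 1.99 and 2.78 CPM at 142 DPA, against 3.45, 5.09 and 5.28 CPM at 45 DPA (log2FC -0.86, adjusted p = 0.0648). It was lower in every 142 DPA library without passing the test. The putative lipid transfer gene Cs5g24670 had 16.1, 47.5 and 36.6 CPM at 142 DPA and 35.8, 34.1 and 37.7 CPM at 45 DPA (log2FC -0.03, adjusted p = 0.967), so the late replicates spread on both sides of the early ones.

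In signaling, 1 of 6 genes rose and 1 fell (16.7% each, against 15.3% and 19.9% of all genes). WAKL1, a wall associated kinase-like receptor, had 2.39, 1.99 and 1.04 CPM at 142 DPA, against 0.192, 0.509 and 0.586 CPM at 45 DPA (log2FC 2.03 ± 0.672, adjusted p = 0.0122, and 0.0541 without replicate 1 of 45 DPA). The leucine rich repeat receptor kinase Cs6g05010 had 0.994, 2.35 and 2.95 CPM at 142 DPA, against 5.17, 5.09 and 3.71 CPM at 45 DPA. Its log2FC was -1.06 ± 0.354 (adjusted p = 0.0126), and -0.7 without replicate 1 of 142 DPA (adjusted p = 0.0876). The change also came under 2-fold, at -0.98, without replicate 1 or replicate 2 of 45 DPA. AHP5, a phosphotransfer protein of cytokinin signaling, had 3 reads at 142 DPA and 0 at 45 DPA, which this depth cannot tell apart.

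Of 7 genes of the transcription category 1 rose (14.3%, against 15.3% of all genes) and 0 fell. TZP, a zinc knuckle protein of phytochrome light signaling, had 9.94, 9.75 and 12 CPM at 142 DPA, against 2.49, 3.39 and 3.13 CPM at 45 DPA. Its mean was 3.51-fold higher (log2FC 1.86 ± 0.278, adjusted p = 4.77e-06). TTG2, a WRKY factor of trichome and seed coat development, had 37.4, 30.9 and 36.1 CPM at 142 DPA, against 54.2, 59.4 and 60.6 CPM at 45 DPA, without overlap and under 2-fold (log2FC -0.69 ± 0.0915, adjusted p = 8.1e-07). The remorin homolog Cs5g03630 had 2.98, 2.89 and 3.3 CPM at 142 DPA and 2.3, 2.72 and 1.37 CPM at 45 DPA (log2FC 0.56 ± 0.4, adjusted p = 0.238), so its 142 DPA libraries were all above those of 45 DPA without a call. UNE10, a bHLH factor, had 0 reads at 142 DPA and 6 at 45 DPA (adjusted p = 0.0991).

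In protein degradation 1 of 3 genes rose (15.3% of all genes did), XSP1, a subtilisin-like serine peptidase of the xylem. It had 2.39, 0.722 and 0.694 CPM at 142 DPA and 0.766, 0.17 and 0 CPM at 45 DPA, with overlapping stages (log2FC 1.96 ± 0.841, adjusted p = 0.0498). The call was lost without replicate 1 of 142 DPA (adjusted p = 0.29) and without replicate 2 or 3 of 45 DPA (0.143 and 0.159). In development, LEA4-5 rose and is described with the seed genes. EMB2757, a protein needed for embryo development, had 7.75, 6.14 and 5.9 CPM at 142 DPA, against 3.26, 4.24 and 2.93 CPM at 45 DPA, without overlap and just under 2-fold (log2FC 0.95, adjusted p = 0.00292).

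Of 21 genes of unknown function 2 rose and 2 fell (9.52% each, against 15.3% and 19.9% of all genes). Cs7g06285 had 25 reads at 142 DPA against 1 at 45 DPA, a ratio of 24.8 (95% exact interval 4.07 to 1019.9, adjusted p = 5.97e-05). Cs7g23240 had 9 reads against 1, a ratio of 8.94 (1.24 to 392.0, adjusted p = 0.0451), and was no longer called without replicate 1 or 3 of 142 DPA or replicate 1 or 2 of 45 DPA (adjusted p 0.0739 to 0.133). Both risers were thus thinly covered, unlike the fallers.

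Cs8g18390 fell, with 11.9, 13.9 and 11.1 CPM at 142 DPA, against 31.6, 29.0 and 27.5 CPM at 45 DPA (log2FC -1.21 ± 0.154, adjusted p = 5.08e-07). Cs7g25170 had 13.7, 31.1 and 17.2 CPM at 142 DPA, against 46.0, 49.6 and 45.7 CPM at 45 DPA (log2FC -1.13 ± 0.298, adjusted p = 0.00238, and -0.87 without replicate 1 of 142 DPA). MGL, a monoglyceride lipase that the study placed in this category, had 24.5, 23.1 and 17.4 CPM at 142 DPA, against 42.2, 40.9 and 46.7 CPM at 45 DPA, just under 2-fold lower (log2FC -0.96 ± 0.113, adjusted p = 1.36e-07). Cs6g16160 had 100.8, 99.8 and 138.1 CPM at 142 DPA and 135.7, 139.5 and 132.1 CPM at 45 DPA, with overlap (log2FC -0.2 ± 0.238, adjusted p = 0.476).

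Seed genes of the list were low in Xinhui and uneven between the 142 DPA replicates. The 8 genes with seed homologs include oleosin (coat of oil bodies), a vicilin-like cupin (storage protein), LEA4-5 and GEA6/Em6 (desiccation proteins), Beta-TIP (a vacuolar water channel of seeds) and CYS2 (a protease inhibitor). LEA4-5 and Cs5g31010 rose, and the other 6 were not called in the fit of 24 libraries. Summed over all 8 genes, the level was 22.9, 56.9 and 69.6 CPM at 142 DPA and 36.6, 34.8 and 39.1 CPM at 45 DPA. The stages overlapped in this sum. Cs5g24670, which alone was well covered at both stages, made up most of it at 45 DPA and did not rise. Without Cs5g24670 the sum was 6.76, 9.39 and 33.0 CPM at 142 DPA, against 0.766, 0.679 and 1.37 CPM at 45 DPA. Replicate 3 of 142 DPA was the highest in both sums. For comparison, without Cs5g24670 the Succari libraries of 142 DPA had 3966.1, 4007.9 and 39.9 CPM. Those of Newhall had 5.32, 5.94 and 5.4 CPM, and those of Bingtang 4.56, 16.4 and 10.3 CPM.

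LEA4-5 had 1.59, 2.71 and 7.46 CPM at 142 DPA, which is 66 reads, and 3 reads at 45 DPA, a ratio of 21.9 (95% exact interval 7.16 to 108.7). Its adjusted p was 0.0177, and 0.118 without replicate 3 of 142 DPA and 0.0602 without replicate 2 of 45 DPA. Oleosin had 0.795, 1.81 and 8.33 CPM at 142 DPA and 1 read in 3 libraries at 45 DPA (adjusted p = 0.157). Beta-TIP had 0.994, 0.181 and 6.94 CPM at 142 DPA and 0 reads at 45 DPA (adjusted p = 0.194), and the vicilin-like Cs1g23800 had 2.78, 3.97 and 8.33 CPM, against 0.383, 0.17 and 0.782 CPM (adjusted p = 0.126). All 3 were highest in replicate 3. GEA6/Em6 had 9 reads at 142 DPA against 3 at 45 DPA, and CYS2 had 2 reads against 1.

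These tests depended on which libraries set the spread. In a fit of the 6 Xinhui libraries alone, oleosin (log2FC 5.53, adjusted p = 0.00148), Cs1g23800 (3.54, adjusted p = 0.000158), LEA4-5 (4.32, adjusted p = 0.000512) and Cs5g31010 (4.31, adjusted p = 0.0104) rose. That is 4 of the 5 seed genes tested there, since Beta-TIP, GEA6/Em6 and CYS2 did not reach the filter in these 6 libraries, and over all 18875 genes of that fit 16.6% rose and 21.5% fell. Over all genes tested, 16 were at least 4-fold above both other replicates in replicate 3 of 142 DPA on log2(CPM + 0.5), against 1 and 3 in replicates 1 and 2. Cs8g19210, a gene of unknown function in the list, was the plainest case, with 0.398, 0.361 and 14.4 CPM at 142 DPA and 0.383, 0.679 and 0.391 CPM at 45 DPA. Without the 8 seed genes, 14 of 64 listed genes rose in the fit of 24 libraries (21.9%, against 15.3% of all genes). In that fit 3 of the 64 fell (4.69%, against 19.9%). The part of seed RNA in the other changes was not tested.

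Where the list differed in Xinhui from the other varieties, it was mostly by a smaller rise or a smaller fall. Of the 72 genes, 4 had a higher stage change in Xinhui than the mean of the other 3 varieties and 10 a lower one (2.27% and 2.45% of all genes). The study chose these genes by their correlation with the sugar/acid ratio over all 24 libraries, Xinhui and Succari included. It reports no rise of this ratio in Xinhui between the stages and a slight one in Newhall. At 142 DPA it reports much higher ratios in Bingtang and Succari. A smaller rise or fall of listed genes in Xinhui is therefore not independent of the choice. The order of the 4 varieties is given below as log2 fold changes of 142 over 45 DPA.

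The log2FC of BOR4 was 1.49 in Xinhui, 4.01 in Newhall, 4.08 in Bingtang and 4.44 in Succari, an interaction of -2.69 ± 0.694 (adjusted p = 0.0105, edgeR). That of TZP was 1.86, 3.49, 3.57 and 3.46 in the same order (interaction -1.65 ± 0.344, adjusted p = 0.002). At 142 DPA its mean was 10.6 ± 1.23 CPM in Xinhui, 26.3 ± 3.68 in Newhall, 29.7 ± 7.63 in Bingtang and 52.2 ± 12.2 in Succari (SD, n = 3 each), while at 45 DPA the 4 means lay between 2.05 and 4.76 CPM. For both genes the fold change was lowest in Xinhui, and for TZP the other varieties were close to each other. BOR4 was scarce at 45 DPA, with means of 0.615 ± 0.207 CPM in Xinhui, 0.151 ± 0.137 in Newhall, 0.245 ± 0.0825 in Bingtang and 0.363 ± 0.352 in Succari. Its fold changes are therefore known only roughly. At 142 DPA its means were 1.71, 2.87, 4.77 and 8.7 CPM in the same order.

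Other genes had a change near 0 or of the opposite sign in Xinhui. ABCB21 had a log2FC of -0.86 in Xinhui, 0.62 in Newhall, 2.13 in Bingtang and 1.99 in Succari (interaction -2.44 ± 0.443, adjusted p = 0.000612). Cs6g05010, which fell in Xinhui, had values of 0.02, 0.73 and 1.04 in Newhall, Bingtang and Succari (interaction -1.66 ± 0.405, adjusted p = 0.00705). Cs5g20010 had a log2FC of 0.39 in Xinhui and of 1.42, 3.77 and 5.13 in Newhall, Bingtang and Succari (interaction -3.04 ± 0.604, adjusted p = 0.00136). In these 3 genes the change was lowest in Xinhui and higher in each other variety.

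HPT1 rose in all 4 varieties, by 2.15 in Xinhui and by 2.63, 4.89 and 3.44 in the others (interaction -1.5 ± 0.416, adjusted p = 0.0166, and 0.0548 and 0.0539 without replicate 1 or 2 of 45 DPA). KAT3, EMB2757, Cs5g06080 (a C2 and GRAM domain protein) and Cs5g23250 had interactions of -1.79, -1.0, -1.29 and -1.33 (adjusted p 0.0174, 0.0289, 0.0283 and 0.0199). Each of the 4 lost its call on leaving out a Xinhui library. For KAT3 this was replicate 2 of 142 DPA (adjusted p = 0.0598) and for Cs5g23250 replicate 3 of 45 DPA (0.0668). For Cs5g06080 it was replicate 2 of 142 DPA, or replicate 1 or 3 of 45 DPA (0.0641 to 0.0995), and for EMB2757 replicate 2 or 3 of 142 DPA, or replicate 1 or 2 of 45 DPA (0.0515 to 0.124). BOR4 lost it without replicate 3 of 45 DPA (0.0529).

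The 4 genes with a higher stage change had a negative log2FC in Xinhui that was smaller in size than the mean of the others. For KCS6 it was -0.51 in Xinhui, -1.55 in Newhall, -1.94 in Bingtang and -2.53 in Succari (interaction 1.49 ± 0.216, adjusted p = 6.16e-05). Its mean at 142 DPA was 50.3 ± 12.1 CPM in Xinhui, 39.9 ± 5.42 in Newhall, 24.9 ± 8.35 in Bingtang and 14.7 ± 1.03 in Succari, although the spreads of Xinhui and Newhall overlap. Cs5g24670, Cs6g16160 and Cs7g25170 had interactions of 2.0, 1.5 and 1.61 (adjusted p 0.0034, 0.00115 and 0.00334). For Cs6g16160 the other varieties did not share a direction, with 0.74 in Newhall, -2.15 in Bingtang and -3.69 in Succari.

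**Figure D5:**
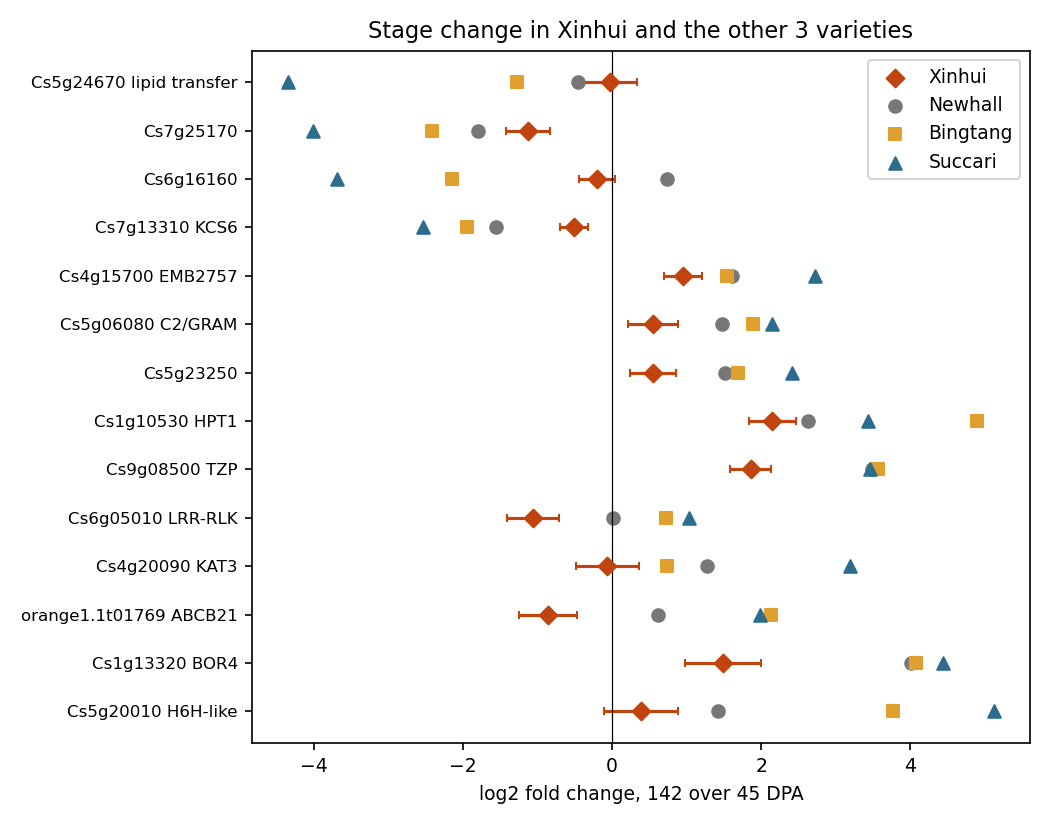
Points give the fitted log2 fold change of 142 over 45 DPA (x axis) in each variety for the 14 listed genes whose stage change in Xinhui differed from the mean of the other 3, with 1 SE for Xinhui. Xinhui lies closer to 0 than Succari for every gene but Cs6g05010, where the values are -1.06 and 1.04.

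Part of these calls were not made without Succari at 142 DPA. Without the Succari libraries of 142 DPA, that is against Newhall and Bingtang only, 1 gene was higher (KCS6, 1.23, adjusted p = 0.000362) and 6 were lower. The lower ones were BOR4 (-2.55, adjusted p = 0.0235), ABCB21 (-2.23, adjusted p = 0.000432), Cs6g05010 (-1.44, adjusted p = 0.0142), TZP (-1.68, adjusted p = 0.000716), HPT1 (-1.61, adjusted p = 0.00926) and Cs5g20010 (-2.2, adjusted p = 0.00889). Against Newhall alone, KCS6 (1.04, adjusted p = 0.00982) and TZP (-1.64, adjusted p = 0.0127) were the listed genes with a called difference. The stage changes of TZP and KCS6 in Xinhui thus differed from the other normal acidity variety as well, that of KCS6 by only just over 2-fold.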

How the data were processed

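Total RNA of fruits was sequenced by the authors on Illumina libraries. The authors deposited 1 table of 24166 gene IDs by 24 libraries. The sheet is named for RPKM, but its values are whole numbers whose sums equal the totals in the headings, and the deposited values are counts of unique reads, without normalization. Which aligner and which genome build were used is not given in the sources used here. Of the IDs, 0 matched the reference gene table, so no sequences or coordinates are given.

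CPM used library totals. Genes reaching 0.3 CPM in 3 or more of the 24 libraries (20739) were tested with edgeR 4.0.16 (quasi-likelihood, TMM) in R 4.3.3, all 8 groups in 1 fit, with Benjamini-Hochberg adjustment over all tested genes. Stage changes are 142 minus 45 DPA. Interactions are Xinhui minus the mean of the other 3 varieties, or minus Newhall. SE is the absolute log2 fold change (log2FC) over the square root of F. Folds against 0 reads use a floor of 3 counts over the group. The script was checked on simulated counts with 50 genes for each change and the other 20539 genes unchanged in all 8 groups. The Xinhui test called 86% of 4-fold rises, 64% of 4-fold falls, 32% of 2-fold rises and 38% of 2-fold falls. For the interaction these shares were 80%, 56%, 26% and 28%. Of unchanged genes 0.0292% and 0.0243% were called. In the data 35.2% of the genes were called, and the cutoff set by the adjustment depends on that share, so the simulated shares do not carry over. Real changes near the 2-fold limit can be missing from the calls, at a share that the simulation does not give.

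Named were the 72 genes of the study's list, with values for called genes, the 6 genes with qPCR, the seed genes and others with a small p, and per contrast the 2 rising and 2 falling unnamed genes of smallest p with at least 10 CPM at the higher stage. Values of further listed genes were chosen after they were seen. The members and lists were chosen with earlier results of these data known. Alternatives were RLE scaling, library totals, 2 other filters, DESeq2 1.42.0, limma 3.58.1 on log2(CPM + 0.5), the 6 Xinhui libraries, no Succari libraries of 142 DPA, a replicate block, other fold limits and leaving out each Xinhui library. Precision is set by 5029816 to 5891613 reads per Xinhui library. Intervals cover counting error only. Python 3.11.15 with pandas 2.3.3, scipy 1.17.1 and matplotlib 3.10.9 were used for summaries and figures.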

Additional observations from a re-analysis of the deposited data

Results flagged for a closer look

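Each result here stands out because the stage change of Xinhui differed from the mean stage change of the other 3 varieties in edgeR's interaction test. Values are differences of log2 fold changes. Over all genes, 471 were higher and 509 lower in Xinhui. Among genes without a name, Cs3g12000 (3.45) and Cs8g15520 (4.34) were higher, and orange1.1t01245 (-1.89) and Cs5g33420 (-4.16) were lower. In the study's sugar/acid ratio list, the lower ones were Cs5g20010 (-3.04), Cs1g13320 or BOR4 (-2.69), orange1.1t01769 or ABCB21 (-2.44), Cs4g20090 or KAT3 (-1.79), Cs6g05010 (-1.66), Cs9g08500 or TZP (-1.65), Cs1g10530 or HPT1 (-1.5), Cs5g23250 (-1.33), Cs5g06080 (-1.29) and Cs4g15700 or EMB2757 (-1.0). The higher ones were Cs5g24670 (2.0), Cs7g25170 (1.61), Cs6g16160 (1.5) and Cs7g13310 or KCS6 (1.49). Their causes were not tested.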

How the results depend on the processing

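Between 90.3% and 100% of the calls in Xinhui were kept in each of 16 alternative fits, and 0 genes were called in the opposite direction. Leaving out 1 Xinhui library gave 3035 to 3143 rising and 3854 to 4036 falling genes, 398 to 540 higher and 372 to 486 lower against the other varieties, and 532 to 700 and 427 to 528 against Newhall. In the list of 72 genes it gave 12 to 14 rising and 1 to 4 falling genes (1 without replicate 1 of 142 DPA), and 4 to 5 higher and 7 to 11 lower against the others. Of the listed calls, 8 rising genes and 1 falling gene (Cs8g18390) were kept wherever tested. Library totals gave 394 higher and 969 lower against Newhall. Without Succari at 142 DPA, 764 genes were higher, and 1 and 6 listed genes were higher and lower. With limma, 19 listed genes were lower. In the fit of the 6 Xinhui libraries, 20 listed genes rose, 3 fell and 20 were not tested.

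With no fold limit 5827 genes rose and 6510 fell, 7 listed genes fell, 1906 were higher and 1170 lower against the others with 7 listed genes higher, and 1722 and 1037 against Newhall. At 4-fold, 1400 rose and 2575 fell, 0 listed genes fell, 118 were higher and 162 lower against the others with 0 and 3 listed ones, and 179 and 181 against Newhall. The sources used here give no pairing of samples between the stages, and the replicate numbers only follow the order of the libraries. Deviations of replicates with the same number had correlations of -0.0435, 0.0248 and -0.0139, which cannot show whether samples were paired. For replicate 1 of 142 DPA and replicate 3 of 45 DPA, which share a number in their titles, the correlation was 0.0506. A block on these same replicate numbers gave 3049 rising and 3996 falling genes in the 6 Xinhui libraries, and 3079 and 3914 in all 24. The cause of these shifts was not tested, beyond the thresholds and library numbers themselves.

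On leaving out single Xinhui libraries, uncalled genes of the list changed sign. The log2 fold change ranged between -0.29 and 0.51 for malate dehydrogenase (Cs1g03610), -0.49 and 0.17 for KAT3 (Cs4g20090), -0.37 and 0.33 for Cs5g24670, -0.06 and 0.67 for Cs5g20010, -0.04 and 0.15 for Cs4g14130, -0.03 and 0.59 for Cs8g05200, -0.49 and 0.32 for Cs9g17670 (-0.02 with limma), -1.04 and 0.46 for orange1.1t00294, and -0.19 and 0.59 for orange1.1t01135. For Cs8g19210 it was -0.37 without replicate 3 of 142 DPA and up to 3.98 otherwise.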
